A study of Homo sapiens with 12 samples.

Results

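The genes described here are 38 human genes whose products license, unwind and copy chromosomal DNA, and they were chosen by gene symbol. All 38 were found among the 25268 gene symbols of the table, and all 38 were among the 14676 genes that reached a mean of at least 0.5 FPKM over the 12 libraries and were tested. FPKM is the number of fragments per kilobase of transcript, scaled for the depth of the library, so levels of different genes can be compared per length. By role they are 8 genes for origin recognition and licensing, 8 of the MCM family, 5 for CDC45 and the GINS complex, 6 for polymerases and primase, 6 for the sliding clamp and its loader, 2 for Okazaki fragment maturation and 3 for deoxynucleotide synthesis.

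In G1 the origin recognition complex (ORC) marks the origins, and CDC6 and CDT1 help it to load the MCM2-7 ring, the motor of the replicative helicase, in an inactive form. In S phase CDC45 and GINS join the ring and switch it on, polymerase alpha with primase starts each strand, polymerases epsilon and delta extend them on the clamp PCNA that replication factor C (RFC) loads, and FEN1 and LIG1 finish the Okazaki fragments. Many of these genes are known targets of E2F transcription factors, and in cultured cells their messenger RNAs are typical of proliferating cells.

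The libraries came from HEK293, an immortalised line derived from human embryonic kidney. Cells were transiently transfected with 2 µg of pCMV6-HIS-HA-RBMX, a plasmid that carries a tagged RBMX gene (an RNA-binding protein of the hnRNP family) behind a CMV promoter, or with the mock empty vector, and the control cells are labelled wild type. There were 3 cultures per vector, and from every culture both total and polysomal RNA were sequenced, in 12 libraries. Lysates cleared of nuclei after a short cycloheximide treatment were run on a sucrose gradient. Total RNA was a pool of all its fractions and polysomal RNA came from the fractions with polysomes. The comparison asks whether more RBMX changes the amount or the polysome loading of these messenger RNAs. Control cells thus carried a plasmid and the transfection reagent as well, the share of cells that took up a plasmid is not given in the sources used here, and total RNA here is cytoplasmic.

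RBMX itself had 147, 145 and 108 FPKM in the total RNA of control cultures 1 to 3. It had 1731, 2073 and 1460.3 FPKM in that of RBMX cultures 1 to 3. Its log2 fold change was 3.71 in total and 3.25 in polysomal RNA, higher in the cells labelled as overexpressing. Without control culture 3 it was 3.56 and 3.00. All 5 HEK293 markers were above 0 in every library, the lowest being NEFH with 0.766 to 2.71 FPKM. Of 8 markers of other cell types 7 stayed below 1 FPKM everywhere, and of these PECAM1 was above 0 in every library. The exception was COL1A1 with 3.14 to 8.61 FPKM. FPKM sums ranged from 817528 to 1903320 per library, and the number of fragments behind them is unknown. Control culture 3 had the highest sum of its group in both fractions. Spearman's rho between replicates of a group lay between 0.976 and 0.999. For control cultures 1 and 2 it was 0.997 in total and 0.999 in polysomal RNA. Control culture 3 reached at most 0.983 and 0.976 with them. The lowest rho of the RBMX groups was 0.992 in total and 0.984 in polysomal RNA. Control culture 3 thus stood apart in both of its libraries, for the replication genes and beyond them. Counts and medians of the members for RBMX against control are therefore given with and without it. Values of single genes are with all libraries unless the text says otherwise.

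Promoter letters that their choice did not use were more frequent in the members than among the genes tested. RefSeq promoter windows (GRCh38.p14, 250 bases before to 50 after the gene start) were found for 35 members, GINS4, MCM4 and MCM5 being the others. The E2F consensus was searched on both strands as TTTCCCGC, TTTCGCGC, TTTGCCGC and TTTGGCGC and their complements GCGGGAAA, GCGCGAAA, GCGGCAAA and GCGCCAAA. It was found in 19 of 35 members (54.3%), against 6.67% of the 10312 tested genes with a window and 3.99% of all 27305 genes with one. CCAAT or ATTGG, the letters of a CCAAT box, were found in 21 of 35 members (60%), against 43.1% of the tested genes with a window and 39.7% of all. A match is a description of letters and says nothing of binding in these cells. The stretches of 28 to 30 bases below hold the matches, in capitals, of MCM helicase genes, of a polymerase alpha subunit and PCNA, of the licensing factor CDC6, and of GINS2, GINS3 and POLE, which behaved otherwise in control culture 3. Where matches on the strands overlap, as in MCM2 and MCM6, the capitals mark their union.
MCM2 (chr3:127598404-127598433, plus strand): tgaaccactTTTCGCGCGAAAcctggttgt
MCM3 (chr6:52284729-52284756, minus strand): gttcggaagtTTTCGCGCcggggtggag
MCM6 (chr2:135876513-135876542, minus strand): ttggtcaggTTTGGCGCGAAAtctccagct
MCM6 (chr2:135876575-135876604, minus strand): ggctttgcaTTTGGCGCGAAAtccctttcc
MCM7 (chr7:100101389-100101416, minus strand): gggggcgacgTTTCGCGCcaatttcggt
POLA2 (chr11:65261899-65261926, plus strand): tggctcccggTTTCGCGCatgcgtgcac
PCNA (chr20:5126664-5126691, minus strand): agcgtcagggGCGGGAAAaggcgtgcgt
CDC6 (chr17:40287876-40287903, plus strand): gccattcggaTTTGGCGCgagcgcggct
GINS2 (chr16:85688968-85688995, minus strand): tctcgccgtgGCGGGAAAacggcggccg
GINS3 (chr16:58392456-58392483, plus strand): gtccccgggcGCGGGAAAcgagtttcaa
POLE (chr12:132687343-132687370, minus strand): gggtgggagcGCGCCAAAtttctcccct

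The match began 4 bases before the annotated start in MCM3, 9 in MCM7, 53 in POLA2, 59 in PCNA, 31 in GINS2, 5 in GINS3 and 18 in POLE, and 90 and 152 bases before it in MCM6. MCM3 and MCM7 each held a second match, 174 and 187 bases before the start, that is not printed here. In MCM2 and CDC6 the match lay just past the start.

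All 38 members were expressed. PCNA, the sliding clamp, was the most abundant per length with a mean of 388 FPKM over the 12 libraries, followed by TYMS, which makes thymidylate (264 FPKM), and the helicase subunit MCM7 (196 FPKM). The lowest were POLE2, an accessory subunit of polymerase epsilon (8.92 FPKM), ORC1 (10.6 FPKM), ORC4 (11.1 FPKM) and POLA1, the catalytic subunit of polymerase alpha (11.2 FPKM). ORC4 and POLA1 did not differ beyond the spread between libraries. Subunits of one complex differed widely in level: over the 12 libraries MCM2 had a mean of 39.1, MCM6 41.8, MCM4 42.1, MCM5 66.5, MCM3 111 and MCM7 196 FPKM, although the ring holds each protein in equal number.

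**Figure D1:**
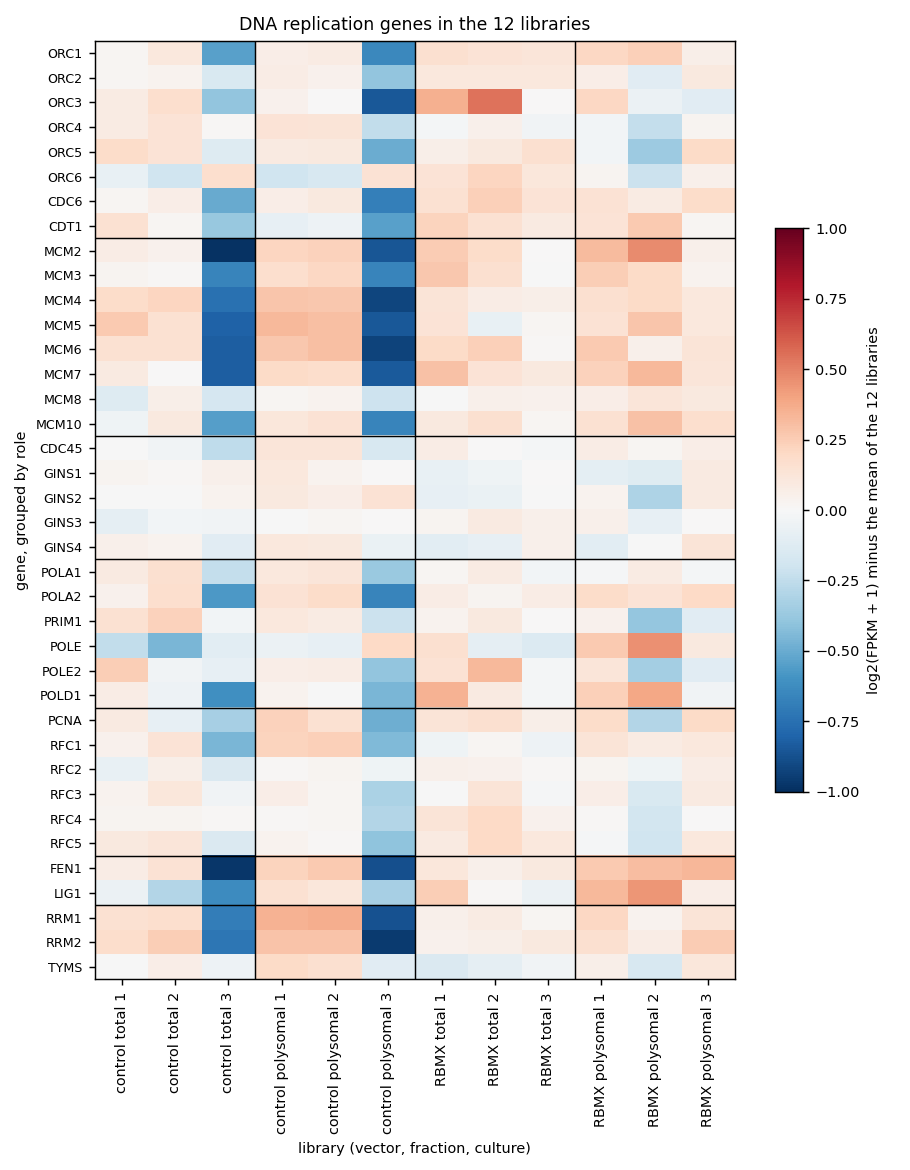
Each row is 1 of the 38 genes, grouped by role from ORC genes at the top to deoxynucleotide synthesis at the bottom, and each column is 1 of the 12 libraries. Colour gives log2(FPKM + 1) minus the gene's mean over the 12 libraries, red above and blue below it. The blue columns are control culture 3 in total and in polysomal RNA, where 33 and 34 of 38 genes lay below both other control cultures.

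The widest differences among replicates lay in control culture 3. MCM2, the first subunit of the ring, had 39.7, 38.7 and 18.4 FPKM in the total RNA of control cultures 1, 2 and 3, and 43.8, 44.3 and 20.3 FPKM in their polysomal RNA. Its levels in the RBMX cultures were 45.1, 42.8 and 37.6 FPKM in total and 47.1, 52.6 and 39.1 FPKM in polysomal RNA. The other 10 libraries thus lay between 37.6 and 52.6 FPKM, all well above the pair from control culture 3. In bulk RNA, fewer cells that express a gene and less of its RNA per cell cannot be told apart.

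The same held for the rest of the ring. MCM7 had 202, 190.1 and 106 FPKM in control total RNA and 217, 215 and 106 FPKM in control polysomal RNA, against 203 to 232 FPKM in RBMX total and 207 to 238 FPKM in RBMX polysomal RNA. MCM4 had 46.4, 47.6 and 24.0 FPKM in control total RNA and 49.7, 49.6 and 21.1 FPKM in control polysomal RNA. Expressed as a percentage of the mean of control cultures 1 and 2, control culture 3 had 47.0% to 62.2% of MCM2 to MCM7 in total RNA and 42.0% to 55.3% in polysomal RNA, MCM3 being the least reduced of the ring in both. MCM10, which helps to activate the helicase, stood at 65.4% and 56.3%, and MCM8, a paralogue that works in recombination and not in the ring, at 90.9% and 84.5%.

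Among CDC45 and GINS, the partners that turn the ring into a working helicase, GINS1, GINS2 and GINS3 did not show this pattern. CDC45 and GINS4 in control culture 3 lay below both other controls in both fractions, by less than MCM2 to MCM7 did. GINS1 had 39.3, 38.9 and 39.8 FPKM in control total RNA and 41.4, 39.5 and 38.6 FPKM in control polysomal RNA. GINS2 had 121, 121 and 125 FPKM in total and 130.2, 128 and 134.7 FPKM in polysomal RNA, so that control culture 3 was the highest of the group in both fractions. GINS3 in control culture 3 stood at 102% of cultures 1 and 2 in total and 99.8% in polysomal RNA, GINS4 at 88.7% and 88.2%, and CDC45 at 84.8% and 81.8%.

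**Figure D2:**
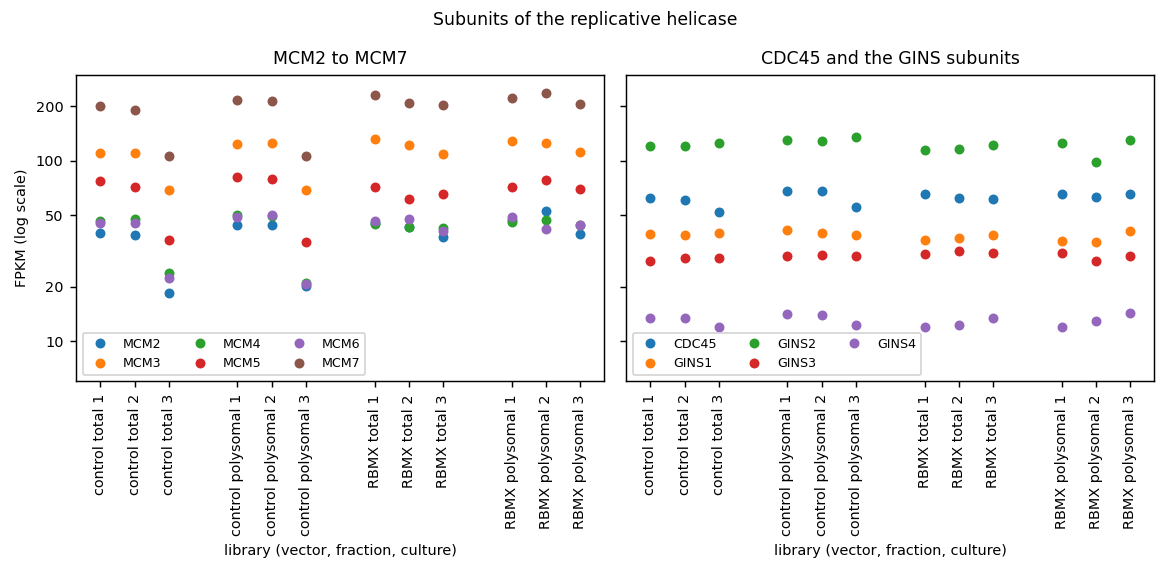
FPKM on a log scale of MCM2 to MCM7 (left) and of CDC45 and the GINS subunits (right) in each of the 12 libraries, 1 point per gene and library. For each MCM gene the points of control culture 3 lie below those of every other library, with MCM2 at 18.4 and 20.3 FPKM, while GINS1 stays between 35.3 and 41.4 FPKM throughout.

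FEN1, the nuclease that trims Okazaki fragments, had 71.4, 75.3 and 34.2 FPKM in control total RNA and 79.2, 81.4 and 36.5 FPKM in control polysomal RNA. RRM2, the small subunit of ribonucleotide reductase that limits deoxynucleotide supply, had 87.2, 91.7 and 46.2 FPKM in total and 94.1, 94.2 and 39.3 FPKM in polysomal RNA. RRM1, the large subunit, had 63.2, 63.8 and 34.8 FPKM in total and 72.7, 73.5 and 30.6 FPKM in polysomal RNA. In each case culture 3 was far below cultures 1 and 2, which differed little from each other. TYMS, from the same supply route, stood at 94.5% of cultures 1 and 2 in total and 81.7% in polysomal RNA, and LIG1, the ligase that seals the fragments, at 71.8% and 71.6%.

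Among the licensing genes, control culture 3 had 62.8% and 57.1% of ORC1, 67.8% and 58.2% of CDC6 and 68.6% and 53.1% of ORC3 (total and polysomal RNA). ORC6, the subunit least tightly bound to the complex, went the other way, with 62.2, 56.9 and 73.8 FPKM in control total RNA and 56.8, 58.4 and 72.4 FPKM in control polysomal RNA. POLE, the catalytic subunit of the leading-strand polymerase, did so too, with 18.4, 15.9 and 20.4 FPKM in total and 21.2, 20.9 and 25.5 FPKM in polysomal RNA. Control culture 3 was thus the highest control for these genes and the lowest for most others. POLD1, the catalytic subunit of polymerase delta, stood at 63.7% and 71.1%, and POLA2 at 61.4% and 55.5%.

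The clamp PCNA had 407, 363 and 304 FPKM in control total RNA and 451, 427 and 273 FPKM in control polysomal RNA. Of its loader, RFC1, the large subunit, stood at 66.7% of cultures 1 and 2 in total and 60.8% in polysomal RNA. The small subunits RFC2 to RFC5 ranged from 83.5% to 99.0% in total and from 73.7% to 95.5% in polysomal RNA.

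Over the list, the median member in control culture 3 had 77.4% (total RNA) and 70.3% (polysomal RNA) of its level in cultures 1 and 2, and the median of all genes tested was 101% and 100.3%. In total RNA 8 of 38 members were at or below 60%, against 5.74% of all genes tested, and in polysomal RNA 14 of 38, against 9% of all genes. Below both other controls were 33 of 38 members in total and 34 in polysomal RNA, against 41.2% and 45% of all genes. In the other 10 libraries, each set against the mean of the other cultures of its group, 0 members were at or below 60%. Of all genes tested 1.15% to 3.75% were, so low values were more frequent in control culture 3 over all genes as well. For control cultures 1 and 2 that mean holds the low control culture 3, which raises their percentages. Among the RBMX libraries, where it plays no part, the lowest member value was 71.8%, for PCNA in the polysomal RNA of culture 2. These values are descriptions, because control culture 3 was singled out after its values were known. Split by the promoter letters, a description with no test, the 19 members with an E2F match had a median of 75.8% in total and 69.6% in polysomal RNA, and the 16 with a window and no match 82.3% and 71.5%.

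**Figure D3:**
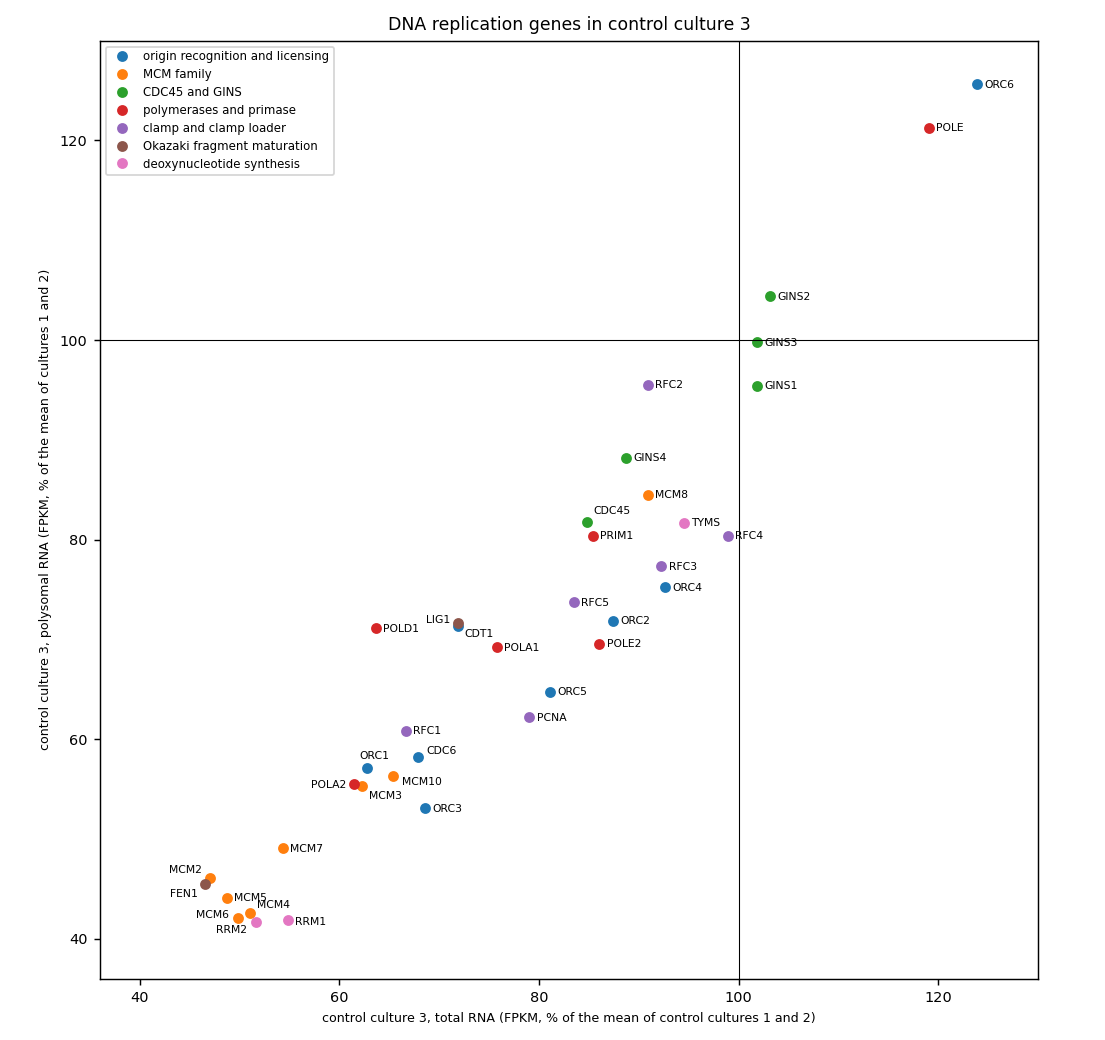
Each point is 1 of the 38 genes, coloured by role. The horizontal axis gives its FPKM in the total RNA of control culture 3 as a percentage of the mean of control cultures 1 and 2, and the vertical axis the same in polysomal RNA, with lines at 100%. MCM2, MCM4, MCM5, MCM6, MCM7, FEN1, RRM1 and RRM2 gather at 41.7% to 54.8%. GINS1, GINS2 and GINS3 lie near 100%, and ORC6 and POLE lie above it in both fractions.

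Other gene lists were compared in the same way in control culture 3, and they differed in how far they moved. The 11 mitotic genes listed, from MKI67 and CCNB1 to TOP2A, were below both other controls in 11 of 11 cases, with medians of 69.8% in total and 58.7% in polysomal RNA. The 22 G1/S regulators had medians of 97.6% and 91.7%. The 41 other replication genes had medians of 94.0% and 84.5%, with 6 (14.6%) at or below 60% in total and 8 (19.5%) in polysomal RNA, and 53.7% and 68.3% of them were below both other controls. Over the 38 members Spearman's rho of the difference of control culture 3 with transcript length was -0.22 in total and -0.20 in polysomal RNA, and with GC content -0.34 and -0.13. Over the 9858 genes with a mean of at least 5 FPKM the rho with length was -0.17 and -0.32, and with GC content -0.19 and 0.17. The part of cell cycle, length or base composition in the low values was not tested.

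The spread between replicates was computed with and without this culture. In control total RNA the median coefficient of variation of the members was 14.9% over the 3 cultures and 3.79% over cultures 1 and 2. In control polysomal RNA it was 19.0% over the 3 cultures and 1.21% over cultures 1 and 2. The RBMX groups had 3.79% in total and 7.85% in polysomal RNA. Among the RBMX libraries, RBMX culture 2 was below both others for 22 of 38 members in polysomal RNA and above both for 12. PCNA was among the lower ones, at 313 FPKM against 435 and 437 FPKM. In total RNA RBMX culture 3 was below both others for 25 of 38 members and above both for 6. ORC3 was among the lower ones, at 28.0 FPKM against 36.1 and 41.1 FPKM.

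In total RNA, no replication gene passed the threshold between RBMX and control cells (limma on log2(FPKM + 1), adjusted p up to 0.05). The count was 0 of 38, where 0.164% of all genes tested passed. An unadjusted p under 0.05 was found for 0 of 38, where 18.8% of all genes had one. The median standard error was 0.126 for the members and 0.094 over all genes. Without control culture 3 it was 0.057 for the members and 0.073 over all genes. The log2 fold change, RBMX over control, was above 0 for 32 members and below it for 6, with a median of 0.16 against 0.00 over all genes, and ran from -0.097 for TYMS to 0.44 for MCM2. The RBMX and control libraries did not overlap for 7 members that were higher (ORC1, ORC2, CDC6, MCM7, GINS3, RFC4 and LIG1), where 11.9% of all genes were, and for 1 that was lower (GINS1), where 15.4% were. With 3 libraries against 3, the exact two-sided permutation test of a single gene cannot go below 0.1.

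The smallest p-value in total RNA belonged to LIG1, with 30.3, 25.6 and 20.1 FPKM in control and 37.7, 31.9 and 30.3 FPKM in RBMX cultures. All RBMX libraries were above all control libraries, by a small margin at the nearest pair, and the log2 fold change was 0.39 (SE 0.17, adjusted p = 0.281). GINS3 had 27.9 to 29.1 FPKM in control and 30.3, 31.7 and 30.8 FPKM in RBMX cultures, a log2 fold change of 0.11 (SE 0.047, adjusted p = 0.297). For ORC2, a core ORC subunit, the values were 22.0 to 25.4 FPKM in control and 26.6 FPKM in each of the RBMX cultures, a log2 fold change of 0.14 (SE 0.068, adjusted p = 0.334). For each of these genes all RBMX libraries were above all control libraries. The means of GINS3, 28.7 ± 0.65 FPKM in control and 30.9 ± 0.70 FPKM in RBMX cells (SD, n = 3), lay further apart than the spread between replicates, and those of LIG1 were 25.3 ± 5.12 and 33.3 ± 3.87 FPKM. None passed the threshold after adjustment over all genes. Without control culture 3 the log2 fold change was 0.24 for LIG1, 0.11 for GINS3 and 0.076 for ORC2.

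POLE had 24.7, 20.7 and 20.1 FPKM in RBMX total RNA, overlapping the control values given above, with a log2 fold change of 0.25 (SE 0.12, adjusted p = 0.336). For the licensing factor CDC6, 58.8, 60.5 and 40.5 FPKM in control cells stood against 64.2, 68.4 and 63.7 FPKM in RBMX cells, a log2 fold change of 0.31 (SE 0.16, adjusted p = 0.357). PCNA, at 419, 429.8 and 399.7 FPKM in RBMX cells, overlapped the control range. Its log2 fold change was 0.22 (SE 0.12, adjusted p = 0.375). ORC6 had 72.3, 76.4 and 70.9 FPKM in RBMX cells, around the highest control value, and a log2 fold change of 0.19 (SE 0.10, adjusted p = 0.376). RFC4, a small subunit of the clamp loader, had 48.5, 48.4 and 48.0 FPKM in control and 52.0, 54.8 and 49.0 FPKM in RBMX cells, a log2 fold change of 0.10 (SE 0.057, adjusted p = 0.395). ORC3 (log2 fold change 0.35, SE 0.20, adjusted p = 0.405) and MCM3 (0.35, SE 0.21, adjusted p = 0.415) completed the 10 members with the smallest p-values, and their groups overlapped. Without control culture 3 the log2 fold change was lower for CDC6 (0.13), PCNA (0.11), RFC4 (0.095), ORC3 (0.18) and MCM3 (0.12). It was higher for POLE and ORC6, as given below.

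In total RNA without control culture 3 the directions were mixed. The count of members past the threshold was again 0 of 38, where 0.273% of all genes passed, and the log2 fold change was above 0 for 21 and below it for 17, with a median of 0.043 against -0.013 over all genes. It ran from -0.18 for MCM5 to 0.33 for POLE. For 11 members the sign changed, among them MCM4, MCM5, MCM6, FEN1, RRM1 and RRM2. An unadjusted p under 0.05 was found for 4 higher members (ORC6, CDC6, GINS3 and POLE), where 11.3% of all genes had one, and for 4 lower ones (MCM4, PRIM1, RRM1 and RRM2), where 14.3% had one. Groups did not overlap for 9 higher and 10 lower members, where 20.5% and 26.5% of all genes did not.

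The lowest adjusted p without control culture 3 was that of ORC6, 0.125, with a log2 fold change of 0.29 (SE 0.060). ORC6 and POLE had their highest control value in that culture, so leaving it out raised their fold changes. Only control cultures 1 and 2 remain in this setting. The log2 fold change was 0.33 (SE 0.12, adjusted p = 0.187) for POLE, -0.15 (SE 0.043, adjusted p = 0.153) for RRM2 and -0.15 (SE 0.050, adjusted p = 0.170) for PRIM1, the catalytic subunit of primase. RRM2 had 79.3, 80.1 and 82.5 FPKM in RBMX total RNA, below control cultures 1 and 2 and above control culture 3. PRIM1 had 44.8, 47.4 and 39.4 FPKM in control and 41.2, 43.0 and 40.3 FPKM in RBMX cells. MCM2, which had the largest log2 fold change with all libraries (0.44, SE 0.31, 95% interval -0.33 to 1.20), was at 0.087 (SE 0.087, 95% interval -0.14 to 0.32) without the culture. The interval was narrower and still held 0.

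**Figure D4:**
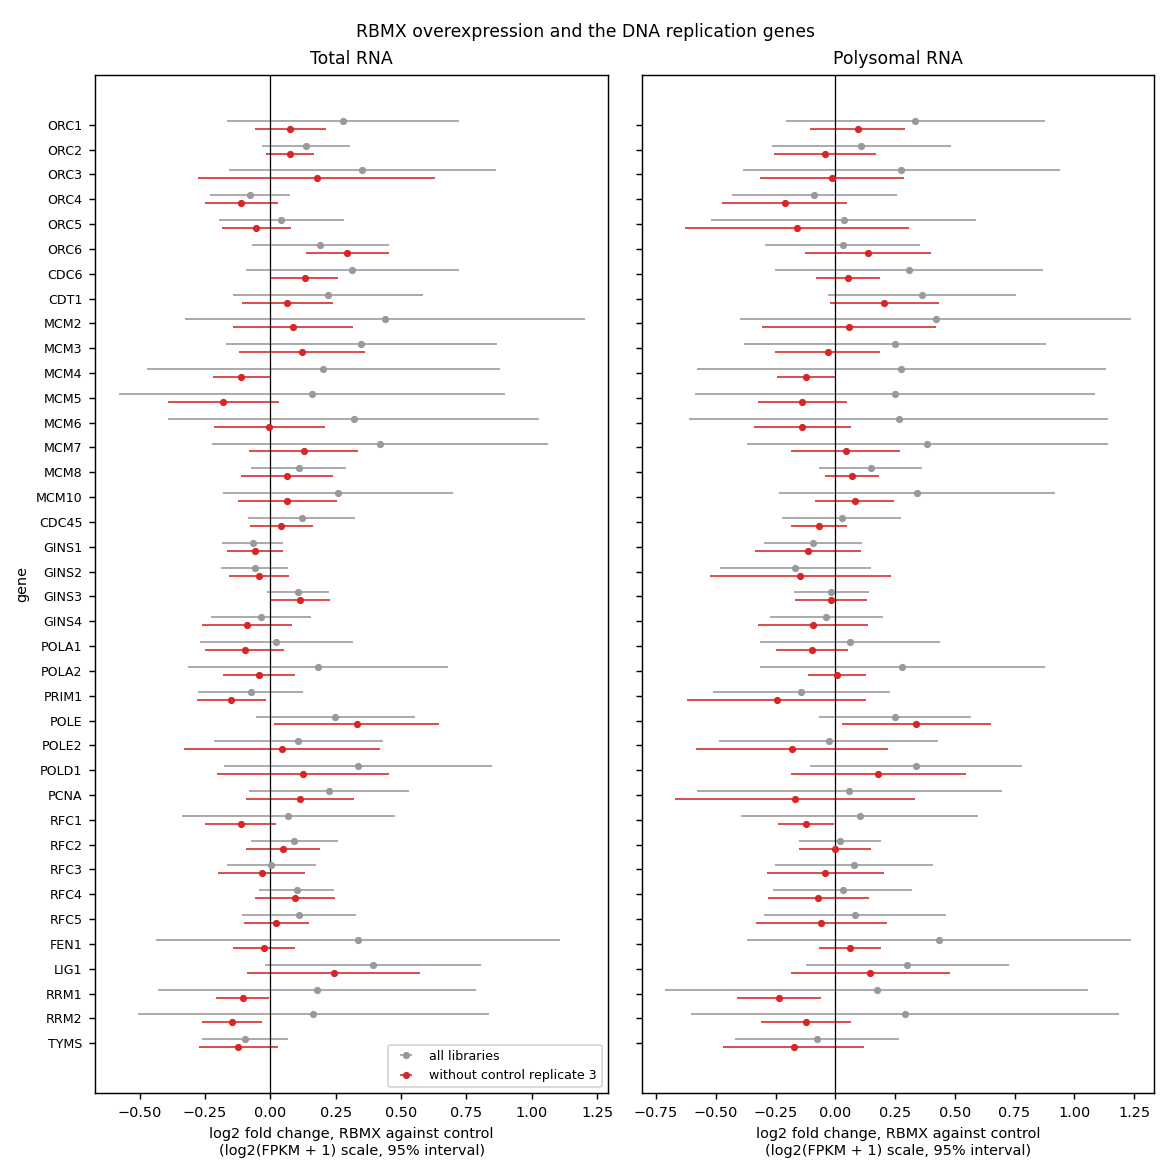
Log2 fold change of RBMX over control cells for each of the 38 genes in total RNA (left) and polysomal RNA (right), on the log2(FPKM + 1) scale. Points are limma estimates and bars their 95% intervals, in grey for all libraries and in red without control replicate 3. In total RNA the interval of MCM2 runs from -0.33 to 1.20 in grey and from -0.14 to 0.32 in red, and the point of MCM5 moves from 0.16 in grey to -0.18 in red.

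In polysomal RNA the count past the threshold was 0 of 38, where 0.0477% of all genes passed. An unadjusted p under 0.05 was found for 0 of 38, where 11.7% of all genes had one. The median standard error was 0.174 for the members and 0.118 over all genes. Without control culture 3 it was 0.083 for the members and 0.085 over all genes. The log2 fold change was above 0 for 30 members and below it for 8, with a median of 0.13 against 0.00 over all genes, from -0.17 for GINS2 to 0.43 for FEN1. Groups did not overlap for 4 higher members (CDT1, MCM8, MCM10 and FEN1), where 10% of all genes were, and for 0 lower ones, where 12.5% were.

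CDT1, which brings the MCM ring to the origin, had the smallest p-value in this fraction. It had 47.3, 48.3 and 34.1 FPKM in control and 55.1, 60.4 and 50.7 FPKM in RBMX polysomal RNA, so the groups did not overlap, and the log2 fold change was 0.36 (SE 0.16, adjusted p = 0.425). POLE had 26.7, 30.7 and 23.7 FPKM in RBMX polysomal RNA, of which the lowest was under the highest control, and a log2 fold change of 0.25 (SE 0.13, adjusted p = 0.469). POLD1 had 32.6, 31.8 and 22.9 FPKM in control and 37.8, 41.9 and 31.0 FPKM in RBMX cells, a log2 fold change of 0.34 (SE 0.18, adjusted p = 0.477). In LIG1 the values were 35.2, 34.1 and 24.8 against 39.8, 43.3 and 33.2 FPKM, a log2 fold change of 0.30 (SE 0.17, adjusted p = 0.496). For each of these the highest value of the 6 was RBMX culture 2 and the lowest, except for POLE, control culture 3. Without control culture 3 the log2 fold change was 0.21 for CDT1, 0.34 for POLE, 0.18 for POLD1 and 0.15 for LIG1.

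MCM8 had 28.9, 29.1 and 24.5 FPKM in control and 29.9, 31.0 and 30.6 FPKM in RBMX polysomal RNA, a log2 fold change of 0.15 (SE 0.086, adjusted p = 0.507). FEN1 had 81.6, 84.2 and 85.8 FPKM in RBMX cells, just above control cultures 1 and 2 and far above control culture 3. Its log2 fold change was 0.43 (SE 0.32, adjusted p = 0.592) with all libraries and 0.061 (SE 0.048) without control culture 3. ORC1 (log2 fold change 0.33), MCM10 (0.34), CDC6 (0.31) and GINS2 (-0.17) were the other members among the 10 with the smallest p-values, with adjusted p between 0.548 and 0.597. Without control culture 3 the log2 fold change was 0.069 for MCM8, 0.094 for ORC1, 0.081 for MCM10, 0.053 for CDC6 and -0.15 for GINS2.

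In polysomal RNA without control culture 3, 0 of 38 members passed the threshold, where 0.075% of all genes did. The log2 fold change was above 0 for 13 and below it for 25, with a median of -0.052 against -0.027 over all genes, and the sign changed for 17 members. It ran from -0.24 for PRIM1 to 0.34 for POLE. An unadjusted p under 0.05 was found for POLE alone among higher members, where 8.36% of all genes had one, and for RRM1 and RFC1 among lower ones, where 9.32% had one. Groups did not overlap for 5 higher and 11 lower members, where 19.1% and 26.2% of all genes did not.

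RRM1 had 65.6, 58.3 and 62.1 FPKM in RBMX polysomal RNA, below control cultures 1 and 2 and above control culture 3, with a log2 fold change of -0.24 (SE 0.065, adjusted p = 0.252) without that culture and 0.17 (SE 0.35, adjusted p = 0.845) with it. POLE stood at 0.34 (SE 0.12, adjusted p = 0.274) and RFC1 at -0.12 (SE 0.043, adjusted p = 0.276) without it. Of the 38 members POLE thus had the highest fold change in both fractions once control culture 3 was left out, and both of its comparisons use the same cultures. Its highest control value in each fraction was that of control culture 3, so leaving this culture out raised its fold change.

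By role, with all libraries, the median log2 fold change of the 8 MCM genes was 0.29 in total and 0.27 in polysomal RNA, all 8 above 0 in each fraction. The medians were 0.065 and 0.0064 without control culture 3. CDC45 and GINS had a median of -0.036 and -0.038 with all libraries and of -0.045 and -0.094 without the culture. RRM1, RRM2 and TYMS were all below 0 without control culture 3, with medians of -0.12 in total and -0.17 in polysomal RNA, where with all libraries the medians were 0.16 and 0.17.

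Polysomal and total RNA of each culture were compared gene by gene. FPKM is relative to the other genes of a library, and total RNA includes the polysomal fractions. The difference thus places a gene relative to other genes and is no absolute share on polysomes. The difference, polysomal minus total on the log2(FPKM + 1) scale, lay between -0.66 and 0.55 in all 6 cultures and 38 genes. It was above 0 in 6 of 6 cultures for 5 members (MCM2, POLE, RFC1, FEN1 and LIG1), where 16% of all genes were, and below 0 in 6 of 6 for 3 members (ORC3, RFC4 and RFC5), where 16.5% were. POLE differed by 0.19, 0.38 and 0.31 in control cultures 1 to 3 and by 0.11, 0.55 and 0.23 in RBMX cultures 1 to 3. LIG1 differed by 0.21, 0.40 and 0.29 in control and by 0.078, 0.43 and 0.12 in RBMX cultures. These were the members with the highest values, each highest in RBMX culture 2.

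FEN1 differed by 0.15, 0.11 and 0.093 in control and by 0.15, 0.26 and 0.24 in RBMX cultures. Below 0 were ORC3, with -0.038, -0.16 and -0.45 in control and -0.15, -0.60 and -0.12 in RBMX cultures, and RFC5, a small subunit of the clamp loader, with -0.067, -0.10 and -0.26 and with -0.11, -0.40 and -0.0020. For ORC3 and RFC5 the sizes varied several times over between cultures of one group, and for FEN1 they varied less. Control culture 3 and RBMX culture 2 gave the most negative values for ORC2 to ORC5.

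In control cells 0 of 38 members passed the threshold between polysomal and total RNA, where 0.0818% of all genes did, and 0 had an unadjusted p under 0.05, where 8.04% of all genes did. Leaving out control culture 3, 0 of 38 passed, where 1.36% of all genes did. In that setting 12 higher members had an unadjusted p under 0.05, where 12.3% of all genes had one, and 1 lower member, RFC5, where 13.3% had one. The lowest adjusted p was 0.074 for RRM1, with a log2 difference of 0.20 (SE 0.024), followed by MCM3 with 0.17 (SE 0.027) and MCM2 with 0.16 (SE 0.028). Each of these rests on 2 cultures.

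In RBMX cells 0 of 38 members passed, where 1.34% of all genes did, and 3 higher members had an unadjusted p under 0.05, where 10% of all genes had one. These were FEN1 with a log2 difference of 0.22 (SE 0.045, adjusted p = 0.099), RFC1 with 0.13 (SE 0.043, adjusted p = 0.168) and POLA2 with 0.11 (SE 0.041, adjusted p = 0.193). The members' median was 0.0081 in RBMX cells and 0.030 in control cells, against -0.0011 and 0.00 over all genes. Without control culture 3 the median in control cells was 0.062 against 0.019 over all genes, and it ran from -0.0022 to 0.062 when single cultures were left out. With the culture as a block, which pairs the fractions, 0 of 38 members passed in either vector, and the number of all genes that passed fell from 12 to 6 in control and from 196 to 4 in RBMX cells.

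The difference of the RBMX effect between the fractions was tested over all 12 libraries, without pairing the fractions of a culture. Of the members 0 of 38 passed the threshold, where 0.0204% of all genes did. An unadjusted p under 0.05 was found for 0 of 38, where 0.6% of all genes had one. With the culture as a block in limma, which pairs the fractions, 0 of 38 members passed as well. Of all genes 5 then passed, against 3 without the block, and 316 had an unadjusted p under 0.05, against 88. The difference, polysomal minus total effect on the log2 scale, ran from -0.17 for PCNA to 0.14 for CDT1, with a median of -0.0076. Without control culture 3 it ran from -0.28 for PCNA to 0.14 for CDT1, with a median of -0.067 against -0.016 over all genes. For PCNA its standard error was 0.21 without the culture, and PCNA in RBMX culture 2 had 429.8 FPKM in total and 313 FPKM in polysomal RNA, where RBMX cultures 1 and 3 had 419 and 399.7 FPKM in total and 435 and 437 FPKM in polysomal RNA.

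**Figure D5:**
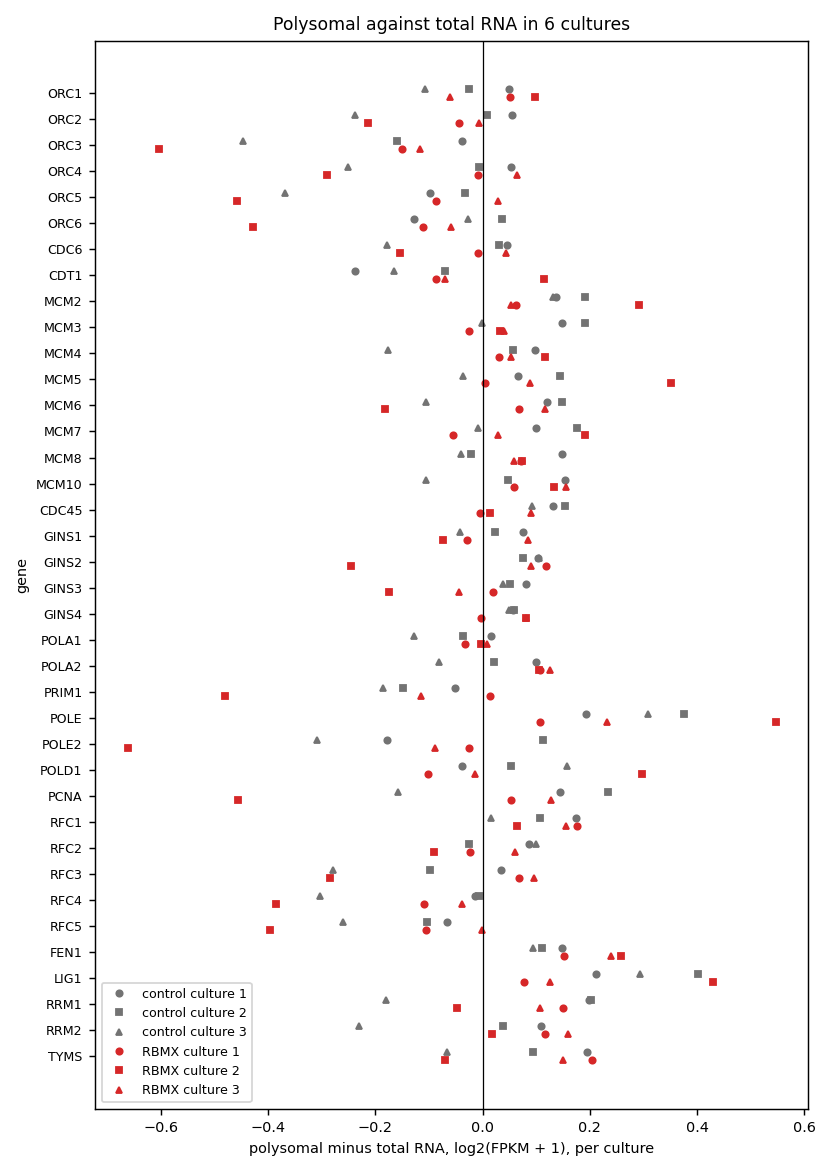
Polysomal minus total log2(FPKM + 1) for each of the 38 genes in each of the 6 cultures, with control cultures in grey and RBMX cultures in red and a marker shape per culture. MCM2, POLE, RFC1, FEN1 and LIG1 lie right of 0 in all 6 cultures, ORC3, RFC4 and RFC5 left of 0, and RBMX culture 2 gives the extremes of -0.66 and 0.55.

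Other genes around the replication machinery were tested in the same fits. Of 41 other replication genes, 0 passed in total RNA with all libraries, and 3 higher and 2 lower ones had an unadjusted p under 0.05, where 18.8% of all genes had one in either direction, their median log2 fold change being 0.088. Among those with the smallest p-values were TIPIN of the fork protection complex (log2 fold change 0.26, SE 0.080, adjusted p = 0.196) and TICRR, which helps to load CDC45 (0.15, SE 0.051, adjusted p = 0.216). In polysomal RNA 0 passed as well, 0 had an unadjusted p under 0.05, where 11.7% of all genes had one, and the median was 0.065. Without control culture 3 the medians were 0.017 in total and -0.081 in polysomal RNA.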

How the data were processed

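Total and polysomal RNA of HEK293 cells was sequenced in 12 libraries, 3 cultures per vector and fraction. The authors deposited FPKM values for 25268 gene symbols. The submitters' processing notes name CASAVA 1.8, TopHat2 2.0.13, Cufflinks 2.2.1 with Cuffnorm and hg19. The annotation and the number of fragments per library are not given in the sources used here, and too few low values shared a common step (11.5% to 23.5% per library) to recover reads, so depth and its precision are unknown. The study's methods describe a comparison of counts on hg38, and these counts were not used here.

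FPKM plus 1 was taken to log2, a scale that understates fold changes of low genes. Genes with a mean of at least 0.5 FPKM were fitted with limma 3.58.1 in R 4.3.3 (lmFit, eBayes with trend), on the libraries of each comparison, and p-values were adjusted over all 14676 genes (Benjamini-Hochberg) and called at up to 0.05. The 5 comparisons were RBMX against control in each fraction, polysomal against total RNA for each vector, and the difference of the RBMX effect between fractions. The fits were run on simulated data with planted changes. Each simulated library was drawn independently. An effect shared by the fractions of a culture and an outlying culture were thus not covered. Named are the members with the 10 smallest p-values per comparison of RBMX with control, those that changed without control culture 3, and up to 3 genes per other list. One gene that this rule names is not reported here, and the counts include it. The members and lists were chosen with earlier results of these data known.

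Total and polysomal RNA of a culture come from one gradient per the methods, which pairs them. Across 14159 genes the correlation of their departures from the mean of the group was 0.623, 0.723 and 0.847 for control and 0.230, 0.0257 and 0.692 for RBMX cultures 1 to 3. Alternatives were a pseudocount of 0.1, no filter, median-ratio rescaling, quantile normalization, a replicate block, one fit to all 12 libraries and omission of each replicate in turn. Quantile normalization or the block together with leaving out control replicate 3 was added after seeing the data. Promoter windows are from RefSeq (GRCh38.p14), transcript length and GC content from GENCODE 29. Protein sequences were not analysed here.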

Additional observations from a re-analysis of the deposited data

How the results depend on the processing

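Members past the threshold numbered 0 in all 5 comparisons under every alternative run, and the lowest adjusted p of a member in the comparisons of RBMX with control was 0.125. The direction of the members depended on control culture 3: without it 11 of 38 changed sign in total and 17 of 38 in polysomal RNA, against at most 4 without any other library. Their median log2 fold change ranged from 0.043 to 0.23 in total and from -0.052 to 0.20 in polysomal RNA when single libraries were left out, and with quantile normalization and without control replicate 3 it was -0.021 in total RNA. Quantile normalization alone turned PCNA (-0.029) and RFC3 (-0.064) in total and RFC4 (-0.0019) in polysomal RNA, and median-ratio rescaling turned GINS3 (0.0062) in polysomal RNA. Left out one at a time, libraries moved members across 0 in total RNA as follows: FEN1 -0.026 to 0.53, MCM4 -0.11 to 0.37, MCM5 -0.18 to 0.36, MCM6 -0.0048 to 0.48, ORC5 -0.053 to 0.10, POLA1 -0.099 to 0.10, POLA2 -0.044 to 0.33, RFC1 -0.11 to 0.18, RFC3 -0.041 to 0.043, RRM1 -0.11 to 0.32 and RRM2 -0.15 to 0.34. In polysomal RNA these were CDC45 -0.069 to 0.075, GINS3 -0.046 to 0.020, GINS4 -0.0996 to 0.020, MCM3 -0.031 to 0.40, MCM4 -0.12 to 0.48, MCM5 -0.14 to 0.45, MCM6 -0.14 to 0.48, ORC2 -0.044 to 0.19, ORC3 -0.013 to 0.43, ORC5 -0.16 to 0.18, ORC6 -0.033 to 0.14, PCNA -0.17 to 0.22, POLA1 -0.099 to 0.15, POLE2 -0.18 to 0.089, RFC1 -0.12 to 0.22, RFC2 -0.0076 to 0.053, RFC3 -0.042 to 0.15, RFC4 -0.072 to 0.096, RFC5 -0.060 to 0.17, RRM1 -0.24 to 0.38, RRM2 -0.12 to 0.50 and TYMS -0.17 to 0.0064.

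The count of all genes called moved more than the members. In total RNA it was 24, and 77 with no filter, 60 in one fit to all 12 libraries, 40 with quantile normalization and without control replicate 3, and 19 to 178 when single libraries were left out (40 without control replicate 3, 178 without RBMX replicate 3). In polysomal RNA it was 7, and 31, 22 and 11 in the same settings, and 9 to 126 when single libraries were left out (14 without control replicate 1, 11 without control replicate 3 or RBMX replicate 2, 126 without RBMX replicate 3). For polysomal against total RNA in control cells it was 12, and 41 in one fit to all 12 libraries and 13 to 199 with single cultures left out (20 without control culture 1, 199 without control culture 3). In RBMX cells it was 196, and 61 with no filter, 70 with quantile normalization (where the members' median was 0.083), 21 in one fit to all 12 libraries and 21 to 23 without any 1 of the RBMX cultures. For the difference between fractions it was 3, and 4 to 7 with single cultures left out, the lowest being without RBMX culture 2. The cause of these moves was not tested.

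With a replicate block the counts were 13 for RBMX against control in the total and 3 in the polysomal fraction, 6 and 4 for polysomal against total RNA in control and RBMX cells, and 5 for the difference between fractions, and it changed no call of a member. With the block and without control replicate 3 they were 0 for polysomal against total RNA in control cells, where 2799 genes had an unadjusted p under 0.05 with limma, and 10 for the difference between fractions. The labels do not say whether control and RBMX cultures of equal number share more than that number. Their deviations correlated with -0.157 to 0.348. The unknown depth sets no limit of detection here, and the lowest member, POLE2, had a mean of 8.92 FPKM.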

Other observations

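Regulators of the G1/S step and mitotic genes, which were not among the replication genes, gave these values. Of 22 G1/S regulators 0 passed the limma threshold between RBMX and control cells in total RNA, with 2 higher and 3 lower at an unadjusted p under 0.05, where 18.8% of all genes had one in either direction. CDKN1A, the CDK inhibitor p21, had a log2 fold change of 0.22 (SE 0.054, adjusted p = 0.176), CCNE1, cyclin E1, had 0.16 (SE 0.045, adjusted p = 0.189) and RBL2, a pocket protein that represses E2F targets, had -0.28 (SE 0.091, adjusted p = 0.207). Without control culture 3 the smallest p-value of the list in both fractions was that of RB1, the retinoblastoma protein, with a log2 fold change of -0.44 in total (SE 0.065, adjusted p = 0.119) and of -0.44 in polysomal RNA (SE 0.082, adjusted p = 0.246).

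Of 11 mitotic genes 0 passed in either fraction, and 0 had an unadjusted p under 0.05 with all libraries. With all libraries 9 of 11 had a log2 fold change above 0 in total RNA, with a median of 0.099, and 11 of 11 in polysomal RNA, with a median of 0.098. The direction turned when 1 culture was left out. Without control culture 3, 10 of 11 were below 0 in total RNA with a median log2 fold change of -0.14, and 11 of 11 in polysomal RNA with a median of -0.21, where the medians of all genes were -0.013 and -0.027. The smallest p-values were those of the B cyclins CCNB2 (-0.16, SE 0.035, adjusted p = 0.129) and CCNB1 (-0.19, SE 0.047, adjusted p = 0.133) in total RNA. MKI67, which coats mitotic chromosomes, was the gene of these lists past the threshold in any comparison: it was higher in polysomal than in total RNA of control cells without control culture 3 (0.35, SE 0.026, adjusted p = 0.045), and had 0.32 (SE 0.14, adjusted p = 0.633) with all control cultures and 0.53 (SE 0.18, adjusted p = 0.176) in RBMX cells. That call came without pairing the fractions and was lost with the culture as a block, where 0 genes passed without control culture 3 in limma and 2799 had an unadjusted p under 0.05. These values share the control cultures of the report.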
